A study of Mus musculus with 6 samples.

Results

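IL-6, IL-10 and the IL-12 family are secreted cytokines through which macrophages instruct lymphocytes and each other. The transcripts described here are those of the cytokines *Il6*, *Il10*, *Il12a*, *Il12b*, *Il23a*, *Il27*, *Ebi3* and *Il15* and of the receptor chains *Il10ra* and *Il4ra*, chosen by gene symbol. Of these 10 genes, 9 were found among the 19309 genes of the count table, each under a single identifier, and *Il23a* was not analysed here. RNA was sequenced from M2c macrophages of 3 sEH-/- and 3 wild-type mice (genotype sEH-/- or WT in the labels). The sEH-/- mice lacked *Ephx2*, the gene of the soluble epoxide hydrolase, in every tissue rather than in macrophages alone. Per the methods, mice were littermates matched for age and strain, and bone marrow came from mice of 8 to 10 weeks. The methods name C57BL/6N mice without tying that strain to these libraries. Both genotypes received the same treatment. Bone marrow monocytes differentiated over 7 days under 15 ng/mL each of M-CSF and GM-CSF, were driven to the M1 state with 10 ng/mL LPS plus 1 ng/mL IFN-γ (24 h in the labels, less in the methods), and were repolarized with 10 ng/mL TGF-β1 (48 h in the labels). No untreated or M1 library was analysed here, so the values describe repolarized cells only. The labels give no sex, and per the methods most experiments used cells from females.

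The members of this group work in a few well-known pairs. IL-6 binds its own receptor chain (*Il6ra*) and signals through gp130 (*Il6st*) to STAT3. IL-10, a cytokine that restrains macrophage activation, signals through *Il10ra* and *Il10rb*, also to STAT3. Cytokines of the IL-12 family are built from a helical chain and a receptor-like chain: p35 (*Il12a*) with p40 (*Il12b*) gives IL-12, p19 (*Il23a*) with p40 gives IL-23, p28 (*Il27*) with EBI3 gives IL-27, and p35 with EBI3 gives IL-35. IL-15 sustains natural killer and memory T cells and is presented on the cell surface by *Il15ra*. *Il4ra* is the shared chain of the IL-4 and IL-13 receptors, which act through STAT6. LPS and IFN-γ are classical inducers of most of these cytokines in macrophages.

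The libraries held between 4400197 and 6096440 counts. Levels are given as CPM, that is, counts scaled to a common library size with edgeR's TMM factors. *Ephx2* had 0.683, 0.403 and 0.231 CPM in the sEH-/- and 5.71, 7.93 and 10.2 CPM in the wild-type libraries, and was thus low in every library labelled sEH-/-. All 7 macrophage markers (*Adgre1*, *Csf1r*, *Cd68*, *Itgam*, *Fcgr1*, *Mertk* and *Lyz2*) were abundant, with summed levels of 1798 to 2249 CPM in sEH-/- and 1618 to 2040 CPM in wild-type libraries. Lymphocyte markers summed to at most 0.806 CPM, with 8 of 9 at 0 or not analysed, and all 5 mast cell and basophil markers were at 0 or not analysed. Of the 7 dendritic cell markers, 3 were at 0 or not analysed, among them *Flt3* and *Cd209a*. The list summed to between 27.0 and 57.6 CPM in sEH-/- and between 42.1 and 58.8 CPM in wild-type libraries. Most of it was *Clec9a* (log2 fold change −0.31, adjusted p = 0.54 by edgeR). *Zbtb46* had 5.29, 3.22 and 9.26 CPM in the sEH-/- and 9.22, 14.6 and 10.6 CPM in the wild-type libraries. Its log2 fold change was −0.98 (adjusted p = 0.11 by edgeR), and that of *Ccr7* was −0.095. All of these overlapped between the genotypes. Neutrophil markers, of which 3 of 9 were at 0 or not analysed, summed to between 28.2 and 31.8 CPM in sEH-/- and between 17.3 and 21.1 CPM in wild-type libraries, most of it *S100a8* (log2 fold change 0.54, adjusted p = 0.057 by edgeR). *S100a9* had 3, 0 and 3 counts in the sEH-/- and 0, 1 and 2 in the wild-type libraries, and *Ltf* overlapped as well. *Elane*, *Camp* and *Ngp* did not overlap, with at most 10 counts in a library. In bulk RNA fewer cells of a type and less RNA per cell cannot be told apart.

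Both genotypes had abundant receptor chains and *Ebi3*, less *Il15* and *Il27*, little *Il12b*, and hardly any *Il6*, *Il12a* or *Il10*. To compare genes with each other, CPM was divided by the exonic length in kilobases. In wild-type macrophages the mean level per kilobase was 52.6 for *Il4ra*, 40.4 for *Ebi3* and 37.1 for *Il10ra*. The ranges of *Ebi3* and *Il10ra* overlapped, whereas *Il4ra* lay above both in every wild-type library. *Il15* followed at 12.5, *Il27* at 8.35 and *Il12b* at 3.71 CPM per kilobase, with no overlap between neighbours in that order. *Il6* (0.144) and *Il12a* (0.102) overlapped each other, and *Il10* had no count in any wild-type library. In sEH-/- macrophages *Il4ra* (55.7), *Il10ra* (49.97) and *Ebi3* (49.1 CPM per kilobase) overlapped as neighbours. There *Il15* (13.7) and *Il27* (9.13) overlapped as well, as did *Il12b* (3.79), *Il6* (1.18), *Il12a* (0.597) and *Il10* (0.138), each with the next.

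**Figure D1:**
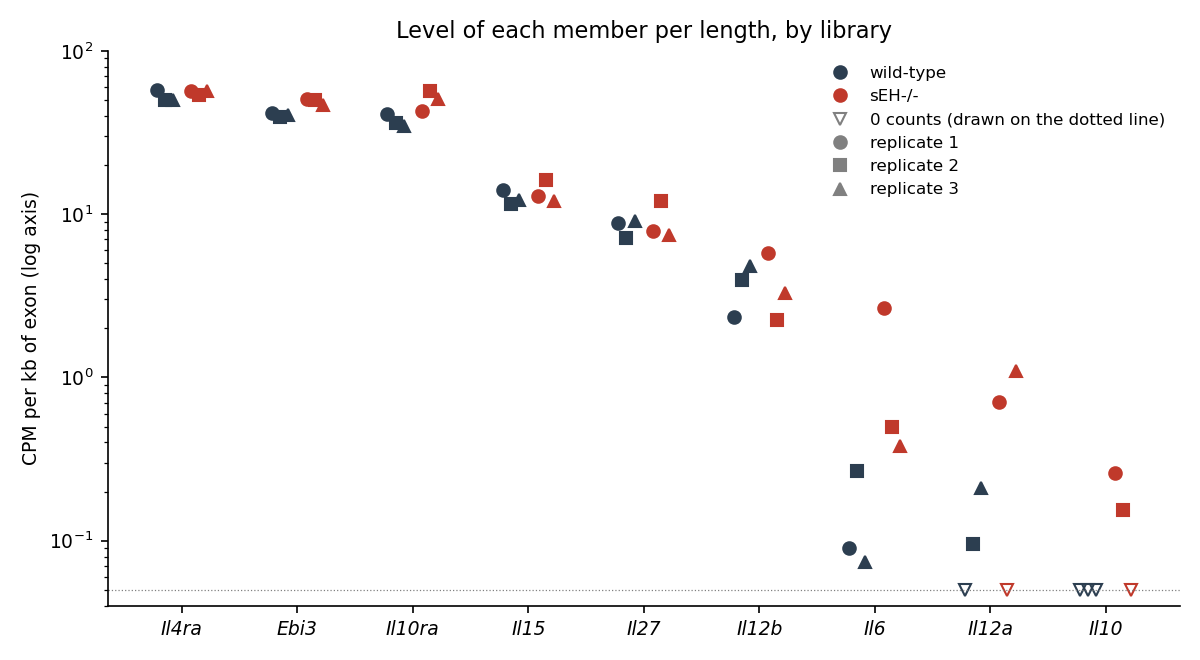
Level of each member in each library, as CPM per kilobase of exon on a log axis, for 3 wild-type and 3 sEH-/- libraries (symbols mark the replicate numbers, and open triangles on the dotted line mark 0 counts). *Il4ra*, *Ebi3* and *Il10ra* lay above 34 CPM per kilobase in all libraries, whereas *Il6*, *Il12a* and *Il10* stayed below 3.

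The genotypes were compared by edgeR's quasi-likelihood test on the 13785 genes whose counts averaged above 5. Genes were called when the p adjusted after Benjamini and Hochberg was under 0.05 and the change exceeded 1.5-fold, the criteria of the study. The study applied them to DESeq2 contrasts, so that the edgeR calls here are not those of the study. Changes are log2 fold changes of sEH-/- over wild-type cells (log2FC), with their standard error (SE). Of the members, *Il10* and *Il12a* had too few counts for the test. None of the 7 tested members was called by edgeR (0 of 7, with 2.61% of all tested genes called). At an unadjusted p below 0.05 there were 3 (*Il6*, *Il10ra* and *Ebi3*), a threshold that 23.4% of all tested genes passed, and at an adjusted p below 0.05 without the fold criterion there was 1 (*Il10ra*). DESeq2 called 1 member, *Il6*, and limma-voom called 0, with 472 and 307 of all 13785 tested genes called, respectively. The median log2FC of the 7 was 0.13, against −0.00092 for all tested genes. All 7 values were above 0, but that of *Il12b* changed sign with limma-voom and those of *Il12b* and *Il27* when single libraries were left out. sEH-/- replicate 1 had the highest level of the 6 libraries for 3 of the 7 (*Il6*, *Il12b* and *Ebi3*), sEH-/- replicate 2 for 3 (*Il27*, *Il15* and *Il10ra*) and wild-type replicate 1 for 1 (*Il4ra*). In 3 of the 7 the genotypes did not overlap, each time with the sEH-/- libraries higher. This held for 11.8% of all tested genes in that direction and for 26.3% in either direction. Of these 3 members, *Il6* passed the count minimum only through its sEH-/- counts. The summed neutrophil markers, mostly *S100a8*, did not overlap either, and their part in these values was not tested.

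**Figure D2:**
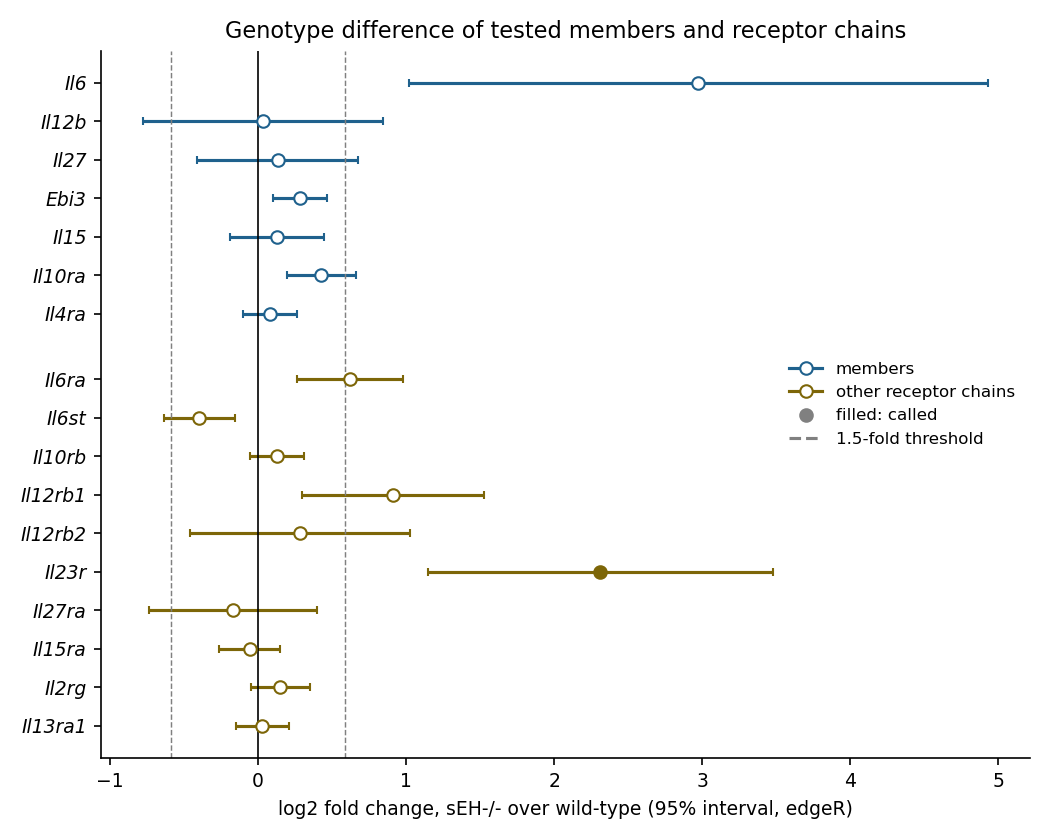
Log2FC of sEH-/- over wild-type with its 95% interval by edgeR, for the 7 tested members (blue) and 10 tested chains of their receptors (brown), n = 3 libraries per genotype. Dashed lines mark a 1.5-fold change and filled points mark called genes; *Il23r* was the called gene, and the widest interval is that of *Il6*, from 1.02 to 4.93.

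Promoter sequences were read from RefSeq, and those of *Il6*, *Ebi3* and *Il12b* are shown. They are shown because NF-κB is a classical inducer of these genes after LPS. Each is the stretch of 250 bases before the RefSeq transcription start (GRCm38.p6, plus strand), and capitals mark matches to the NF-κB consensus on either strand. The windows lie at chr5:30012864-30013113, chr17:55952373-55952622 and chr11:44399813-44400062, respectively.
Il6: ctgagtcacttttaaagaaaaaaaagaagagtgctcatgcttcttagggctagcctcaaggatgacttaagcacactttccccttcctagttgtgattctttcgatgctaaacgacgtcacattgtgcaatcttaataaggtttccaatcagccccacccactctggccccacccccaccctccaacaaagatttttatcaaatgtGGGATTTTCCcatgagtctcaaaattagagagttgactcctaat
Ebi3: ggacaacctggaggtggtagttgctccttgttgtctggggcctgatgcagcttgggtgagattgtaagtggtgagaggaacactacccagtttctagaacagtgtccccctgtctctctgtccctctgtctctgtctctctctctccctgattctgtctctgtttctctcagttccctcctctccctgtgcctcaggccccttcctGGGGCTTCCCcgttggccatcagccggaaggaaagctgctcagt
Il12b: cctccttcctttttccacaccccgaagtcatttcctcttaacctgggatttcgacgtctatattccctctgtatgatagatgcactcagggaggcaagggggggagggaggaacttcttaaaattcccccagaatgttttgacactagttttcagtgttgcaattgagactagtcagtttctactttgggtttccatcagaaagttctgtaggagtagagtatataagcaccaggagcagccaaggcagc
The *Il6* and the *Ebi3* window each held a match, both beginning 44 bases before the start. No match was found in the windows of *Il12b*, *Il12a* or *Il4ra*, and no window was at hand for *Il10ra*. Only full matches to GGGRNNYYCC were sought, so that partial sites are not marked. Whether the matches bear on the genotype differences was not tested. A match to this consensus was present in 7.25% of 32851 mouse promoter windows of the same length. The *Il6* window also held an AP-1 match (TGANTCA, in 6.75% of windows) and a C/EBP match (TTGCNNAA, in 9.56%). The IRF motif (2.98% of windows) and the STAT motif TTCNNNGAA (7.02%) were not found in the windows of *Il6*, *Ebi3*, *Il12b*, *Il12a* or *Il4ra*. The Smad motif CAGAC (42.2%) was found in those of *Ebi3*, *Il12a* and *Il4ra*. All motifs were searched on both strands, no 2 matches of different motifs overlapped in these windows, and a match describes the letters only.

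*Il6* encodes IL-6, a cytokine that drives the acute phase response (mm10 chromosome 5, 30013114 to 30019981, plus strand). It was sparse in M2c macrophages, with 38, 6 and 4 counts in sEH-/- and 1, 4 and 1 in wild-type cells. This corresponds to 6.49, 1.21 and 0.926 CPM in sEH-/- and 0.220, 0.648 and 0.179 CPM in wild-type cells. Every sEH-/- library lay above every wild-type library, but sEH-/- replicate 1 held 38 of the 48 sEH-/- counts. The wild-type counts alone were under the minimum for the test. The log2FC came to 2.97 ± 0.88 (SE, 95% interval 1.02 to 4.93), which missed the threshold in edgeR (adjusted p = 0.077) and passed it in DESeq2 (adjusted p = 0.037). Without sEH-/- replicate 1 the gene had too few counts for the test. The remaining 10 sEH-/- and 6 wild-type counts, scaled for library size, gave a ratio of 2.93 with an exact 95% interval from 0.965 to 9.81, compared with 8.62 (3.68 to 24.7) for all libraries. These intervals cover counting error only. In edgeR *Il6* was called without sEH-/- replicate 3 (log2FC 3.36, adjusted p = 0.043) and with the library total as a covariate (3.56, adjusted p = 0.025).

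*Il12b* encodes p40, the chain shared by IL-12 and IL-23 (chromosome 11, 44400063 to 44414033, plus strand). Its level was 11.4, 4.43 and 6.48 CPM in the sEH-/- and 4.61, 7.77 and 9.48 CPM in the wild-type libraries, from 21 to 67 counts each. The genotypes overlapped fully, with the highest value in sEH-/- replicate 1 and the lowest in sEH-/- replicate 2. The log2FC of 0.037 ± 0.37 (SE, adjusted p = 0.96 by edgeR) had a 95% interval from −0.77 to 0.85, which includes a change of 1.5-fold in either direction. Without sEH-/- replicate 1 the log2FC came to −0.44 (adjusted p = 0.43). The highest *Il6* and the highest *Il12b* level thus came from the same library.

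*Il12a* encodes p35, the partner of p40 in IL-12 (chromosome 3, 68690644 to 68698547, plus strand). It had 7, 0 and 8 counts in the sEH-/- and 0, 1 and 2 counts in the wild-type libraries. Replicates 1 and 3 of the sEH-/- macrophages lay above all others and replicate 2 was at 0, so that the genotypes overlapped. Summed over libraries, the 15 sEH-/- and 3 wild-type counts gave a ratio of 5.39, for which counting error alone allowed 1.52 to 29.0 (exact 95% limits). When no filter was applied, edgeR gave an adjusted p of 0.25 for *Il12a*.

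*Il27* encodes p28, and *Ebi3* encodes the receptor-like chain that joins it in IL-27. *Il27* (chromosome 7, 126589010 to 126594941, minus strand) had 8.02, 12.3 and 7.64 CPM in the sEH-/- and 9.0004, 7.29 and 9.30 CPM in the wild-type libraries. The values overlapped, with sEH-/- replicate 2 the highest, and the log2FC came to 0.13 ± 0.24 (SE, 95% interval −0.41 to 0.67, adjusted p = 0.79 by edgeR). *Ebi3* (chromosome 17, 55952640 to 55957022, plus strand) was the most abundant cytokine chain per kilobase in both genotypes. It had 58.6, 57.8 and 53.7 CPM in the sEH-/- and 47.9, 45.3 and 46.7 CPM in the wild-type libraries. The 3 sEH-/- libraries lay above the 3 wild-type libraries, within a narrow spread in each genotype. Its log2FC of 0.29 ± 0.083 (SE, 95% interval 0.10 to 0.47) was not past the threshold over all genes (adjusted p = 0.074 by edgeR and 0.23 by DESeq2), and the interval stayed below 1.5-fold. With each library left out the value stayed between 0.26 and 0.33.

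**Figure D3:**
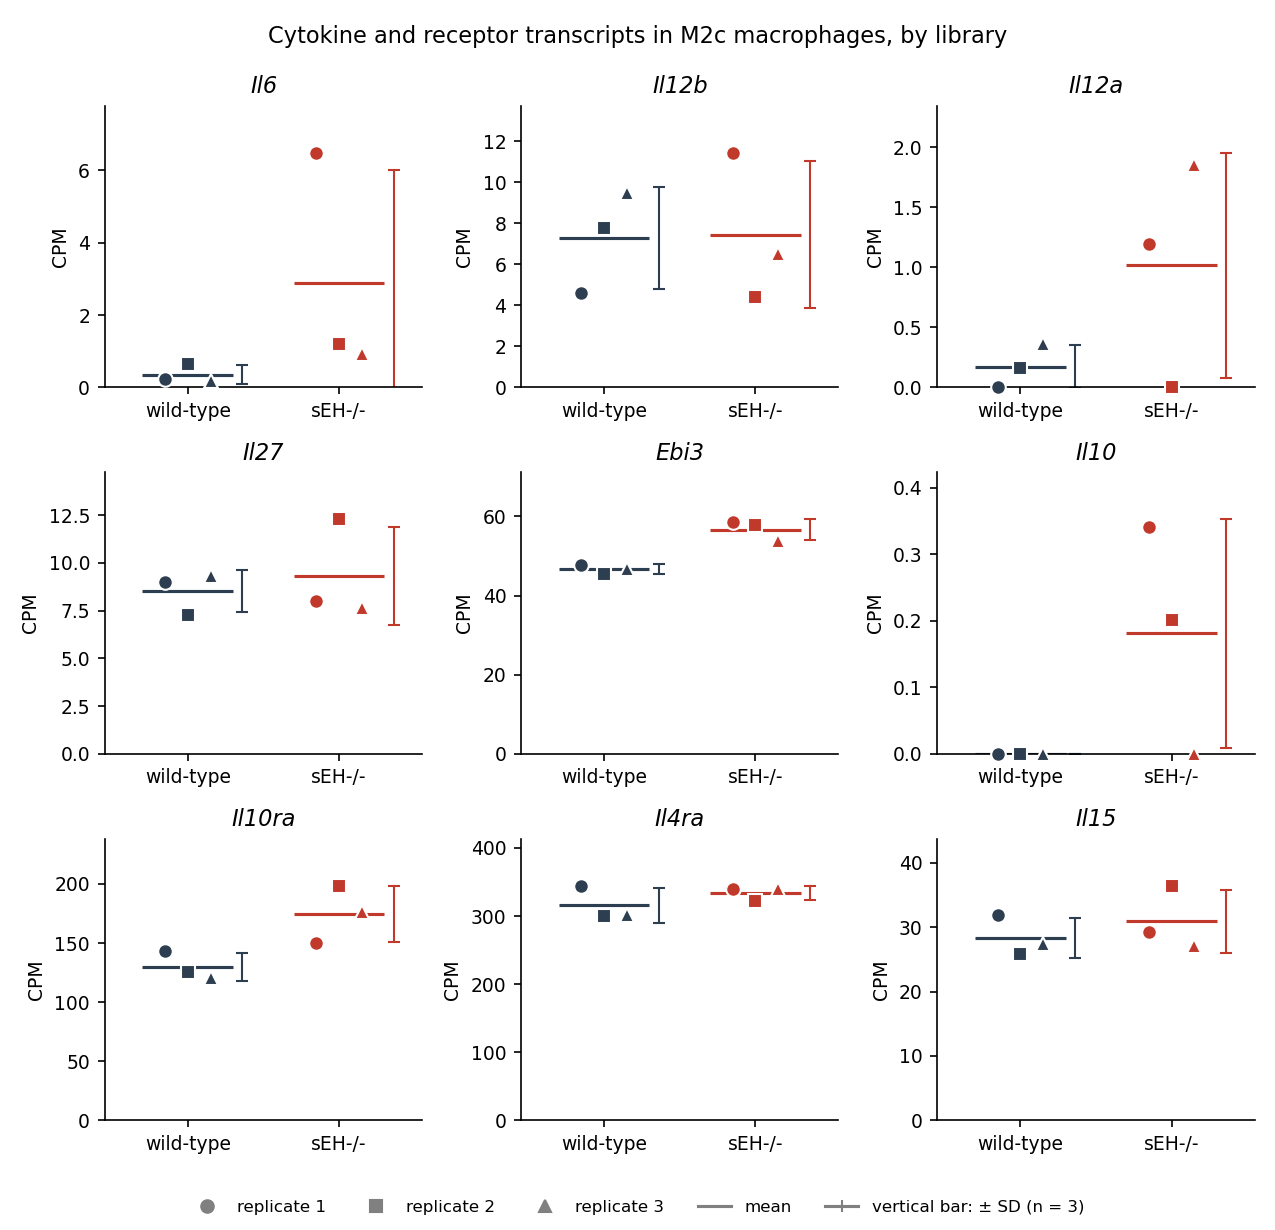
CPM of the 9 members in each library, with 3 wild-type libraries in dark blue and 3 sEH-/- libraries in red, the mean as a horizontal line and the SD as a vertical bar (n = 3), each panel starting at 0 with its own scale and the bar cut off at 0. The genotypes were apart for *Il6*, *Ebi3* and *Il10ra* and overlapped for the other members, and the *Il6* mean of sEH-/- cells was set by replicate 1.

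The balance of the chains within a library does not depend on scaling. It was computed with 0.5 counts added to each gene and compared by an exact two-sided permutation test, for which 3 libraries against 3 allow no p below 0.1. The log2 ratio of *Ebi3* to *Il27*, both per kilobase, was 2.45 ± 0.35 (SD, n = 3) in sEH-/- and 2.27 ± 0.16 (SD, n = 3) in wild-type macrophages (exact p = 0.5). *Ebi3* thus exceeded *Il27* in every library. The log2 ratio of *Il12b* to *Il12a* was 3.26 ± 1.89 (SD, n = 3) and 4.74 ± 0.51 (SD, n = 3), respectively (exact p = 0.4), and that of *Ebi3* to *Il12a* was 7.05 ± 2.35 and 8.24 ± 1.04 (exact p = 0.5, n = 3 each). Adjusted over these 3 ratios, every p was 0.5. The ratios with *Il12a* rested on at most 8 of its counts per library.

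*Il10* (chromosome 1, 131019845 to 131024974, plus strand) was at the limit of detection, with 2, 1 and 0 counts in the sEH-/- and 0 counts in each wild-type library. A count of 0 over the 3 wild-type libraries allows a level of up to 0.184 CPM, and the 3 counts in sEH-/- cells corresponded to 0.198 CPM. The exact 95% interval of the ratio, counting error only, began at 0.445 and had no upper limit, so that it included 1. The receptor chain *Il10ra*, in contrast, was abundant (chromosome 9, 45253837 to 45269149, minus strand). It had 150, 198 and 176 CPM in the sEH-/- and 143, 126 and 121 CPM in the wild-type libraries. All sEH-/- libraries lay above all wild-type libraries, replicate 2 being the highest. The log2FC of 0.43 ± 0.10 (SE, 95% interval 0.20 to 0.66) had an adjusted p of 0.049 by edgeR and 0.0072 by DESeq2, but was under the 1.5-fold criterion. The adjusted p was 0.054 with limma-voom, and by edgeR it was 0.15 without sEH-/- replicate 2, 0.069 without sEH-/- replicate 3, and 0.21 or 0.20 when replicate 2 or 3 of the wild-type cells was left out. *Il10ra* carried 0.225 counts per exonic base, *Ebi3* 0.234 and *Il4ra* 0.282, and duplicate reads had been removed before counting. When counts were corrected for a ceiling of 1 count per base, a correction chosen after the data were seen, the log2FC came to 0.48 for *Il10ra* and 0.32 for *Ebi3*.

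*Il4ra* had the highest mean level of the members (chromosome 7, 125552120 to 125579474, plus strand), with 340, 322 and 340 CPM in the sEH-/- and 345, 301 and 301 CPM in the wild-type libraries. The genotypes overlapped, and the log2FC came to 0.084 ± 0.082 (SE, 95% interval −0.097 to 0.26, adjusted p = 0.59 by edgeR). *Il15* (chromosome 8, 82331632 to 82403222, minus strand) had 29.2, 36.5 and 27.1 CPM in the sEH-/- and 31.8, 25.9 and 27.4 CPM in the wild-type libraries. Here too the values overlapped, with a log2FC of 0.13 ± 0.14 (SE, 95% interval −0.18 to 0.45, adjusted p = 0.63). For both genes the interval excluded a change of 1.5-fold in either direction. Exons of *Ebi3* and *Il4ra* overlap antisense genes (*Gm16712* and *Gm44876*) and exons of *Il27* overlap *Apobr* on the other strand, and per the methods reads were counted by strand.

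Of the chains that receive these cytokines, *Il23r* was called higher in sEH-/- macrophages, from few counts. *Il6ra* and *Il6st* lay apart between the genotypes without a call. Of 11 further receptor chains, 10 were tested and 1 was called, *Il23r* (1.51% of all tested genes were called higher and 1.1% lower). The median log2FC of the 10 was 0.14. *Il23r* encodes the chain that gives IL-23 its specificity and had 16, 24 and 8 counts in the sEH-/- and 5, 3 and 2 counts in the wild-type libraries, or 2.73, 4.83 and 1.85 against 1.10, 0.486 and 0.358 CPM. The genotypes did not overlap, and the log2FC came to 2.31 ± 0.53 (SE, adjusted p = 0.042 by edgeR and 0.039 by DESeq2). *Il23r* passed the count minimum only through its sEH-/- counts. It lost its call with limma-voom (adjusted p = 0.051) and, by edgeR, with the library total as a covariate (0.077). By edgeR it also lost its call without sEH-/- replicate 2 (0.13) and without wild-type replicate 2 (0.21) or 3 (0.18). Its partner *Il12rb1*, shared by the IL-12 and IL-23 receptors, had 35.0, 20.9 and 18.3 CPM in sEH-/- and 18.4, 10.5 and 11.5 CPM in wild-type libraries. These values just overlapped, with sEH-/- replicate 1 again the highest, and the log2FC of 0.91 ± 0.28 (SE) was called by DESeq2 (adjusted p = 0.025) and not by edgeR (adjusted p = 0.082). edgeR called it without sEH-/- replicate 3 (adjusted p = 0.0499) or wild-type replicate 1 (adjusted p = 0.038). *Il12rb2*, the signalling chain of the IL-12 receptor, had 2.42 to 4.95 CPM in sEH-/- and 2.68 to 3.07 CPM in wild-type libraries (log2FC 0.28 ± 0.34 SE, adjusted p = 0.66).

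The log2FCs of the IL-6 receptor chains lay on opposite sides of 0. *Il6ra* had 66.4, 94.3 and 69.4 CPM in the sEH-/- and 61.0, 48.6 and 40.6 CPM in the wild-type libraries, and its log2FC came to 0.62 ± 0.16 (SE, adjusted p = 0.058 by edgeR and 0.0074 by DESeq2). *Il6st*, the gene of gp130, had 181, 152 and 196 CPM in the sEH-/- and 237, 254 and 203 CPM in the wild-type libraries, with a log2FC of −0.40 ± 0.11 (SE, adjusted p = 0.064 by edgeR and 0.018 by DESeq2). Neither gene overlapped between the genotypes, and neither was called by edgeR with all libraries. *Il6ra* was called without sEH-/- replicate 1 (adjusted p = 0.038) or wild-type replicate 1 (adjusted p = 0.025). Within a library, the log2 ratio of *Il6ra* to *Il6st*, both per kilobase, was −0.85 ± 0.45 (SD, n = 3) in sEH-/- and −1.86 ± 0.23 (SD, n = 3) in wild-type macrophages. The difference of 1.01 had the smallest p that 3 libraries against 3 allow (exact permutation p = 0.1). This ratio was chosen after the values of both genes had been seen. As both genes lay apart in opposite directions, their ratio had to separate the genotypes, so that this p adds no support. With each library left out the difference stayed between 0.75 and 1.15, its sign being fixed in the same way.

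**Figure D4:**
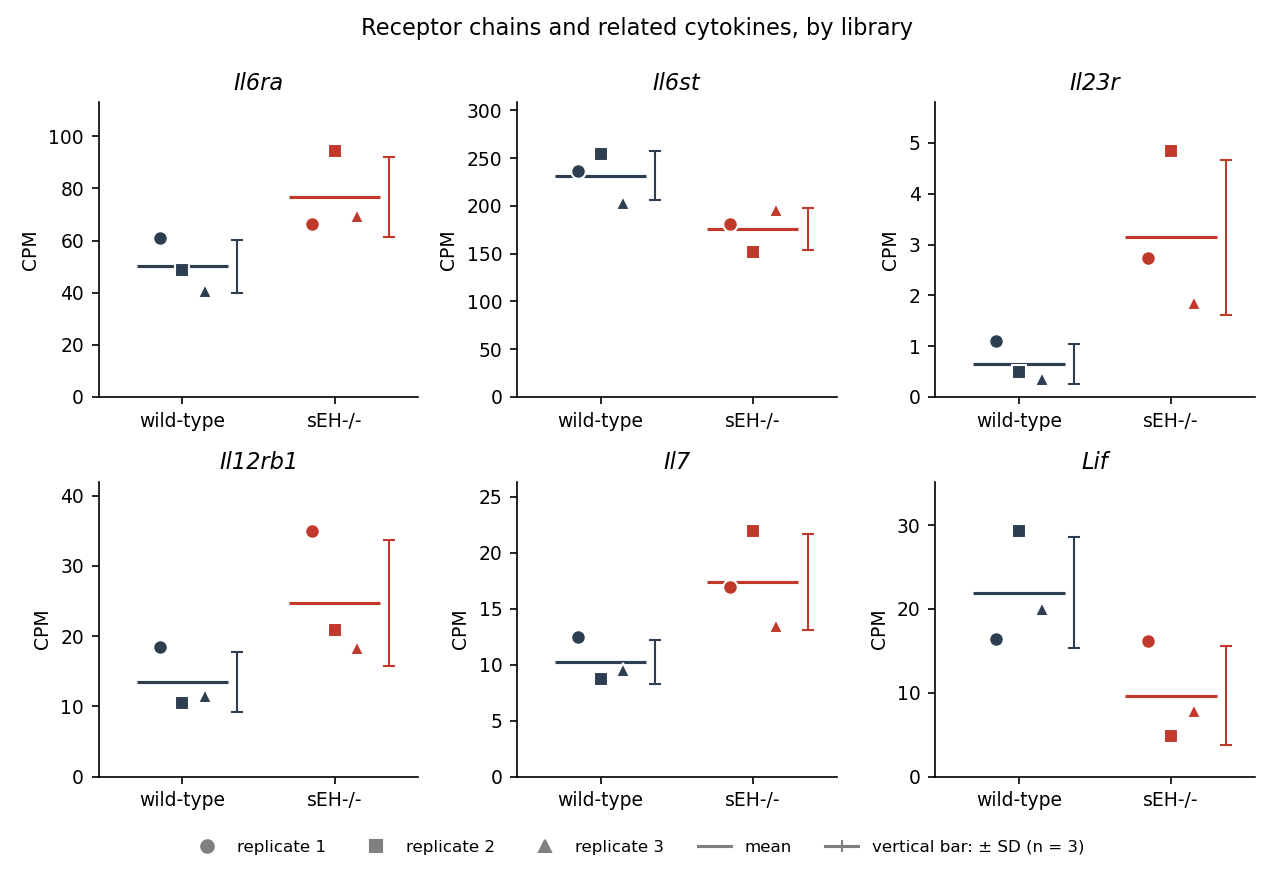
CPM in each library for 4 receptor chains and the cytokines *Il7* and *Lif*, with 3 wild-type libraries in dark blue and 3 sEH-/- libraries in red, the mean as a horizontal line and the SD as a vertical bar (n = 3), each panel starting at 0. *Il6ra*, *Il23r* and *Il7* lay higher and *Il6st* and *Lif* lower in all 3 sEH-/- libraries, and *Il12rb1* overlapped between the genotypes.

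For the remaining receptor chains no difference was detected. *Il10rb*, the partner of *Il10ra*, had a log2FC of 0.13 ± 0.083 (SE, 95% interval −0.056 to 0.31, adjusted p = 0.39 by edgeR). The values were −0.055 for *Il15ra* (SE 0.093, 95% interval −0.26 to 0.15) and 0.15 for *Il2rg*, the common γ chain (SE 0.090, 95% interval −0.046 to 0.35). *Il13ra1*, which pairs with *Il4ra* for IL-13, had a value of 0.029 (SE 0.081, 95% interval −0.15 to 0.21) and *Il27ra* one of −0.17 (SE 0.25, 95% interval −0.73 to 0.40). Their adjusted p-values lay between 0.34 and 0.87, and *Il2rb* had too few counts to be tested.

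Of 18 related cytokines of the IL-6, IL-10 and γ chain groups, 7 were analysed and 4 had enough counts for the test, of which edgeR called 0 (2 at an unadjusted p below 0.05, against 23.4% of all tested genes) and DESeq2 called 1. *Lif*, which signals through gp130 like IL-6, had 16.2, 4.83 and 7.87 CPM in the sEH-/- and 16.5, 29.3 and 20.04 CPM in the wild-type libraries. All sEH-/- libraries lay below the wild-type libraries, but sEH-/- replicate 1 and wild-type replicate 1 were nearly level, and the log2FC of −1.16 ± 0.36 (SE) was called by DESeq2 (adjusted p = 0.015) and not by edgeR (adjusted p = 0.088). Without sEH-/- replicate 1 it was −1.82 and was called (adjusted p = 0.020 by edgeR). *Il7*, a lymphocyte growth factor, had 16.9, 22.0 and 13.4 CPM in the sEH-/- and 12.5, 8.74 and 9.48 CPM in the wild-type libraries (log2FC 0.78 ± 0.22 SE, adjusted p = 0.072 by edgeR and 0.057 by DESeq2). These values did not overlap, and edgeR called *Il7* without sEH-/- replicate 3 (adjusted p = 0.039) or wild-type replicate 1 (adjusted p = 0.049). *Osm*, another gp130 cytokine, had 56.5 to 97.3 CPM in sEH-/- and 63.9 to 88.0 CPM in wild-type libraries, again with the highest value in sEH-/- replicate 1 (log2FC −0.14 ± 0.19 SE, adjusted p = 0.72).

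Downstream of these receptors, none of the 15 JAK, STAT and SOCS genes was called by edgeR (0, with 6 at an unadjusted p below 0.05, which 23.4% of all tested genes passed) or by DESeq2 (0), and their median log2FC came to 0.059. In 6 of the 15 the genotypes did not overlap, 5 with sEH-/- higher and 1 lower, compared with 26.3% of all tested genes. *Stat3*, the transducer of IL-6 and IL-10 signals, had a log2FC of 0.059 ± 0.073 (SE, 95% interval −0.10 to 0.22), and *Stat6*, that of IL-4, had one of 0.031 (SE 0.072, 95% interval −0.13 to 0.19). *Socs3*, the feedback inhibitor induced by STAT3, had 123.1, 106 and 109 CPM in the sEH-/- and 95.5, 89.1 and 87.3 CPM in the wild-type libraries. These values did not overlap, but the log2FC of 0.32 ± 0.080 (SE) was not past the threshold (adjusted p = 0.053 by edgeR and 0.060 by DESeq2).

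Of 11 genes induced by IL-10 and STAT3 in macrophages, 1 was called, the phosphatase gene *Dusp1*, which was higher in sEH-/- cells with 63.5, 82.2 and 46.8 CPM against 39.5, 36.3 and 35.96 CPM (log2FC 0.79 ± 0.17 SE, adjusted p = 0.035 by edgeR). *Dusp1* is also induced by LPS itself. The median of the 11 was 0.10, and over all tested genes 2.61% were called. At an unadjusted p below 0.05 by edgeR there were 5 of the 11, against 23.4% of all tested genes. The genotypes did not overlap in 5 of the 11, each time with sEH-/- higher, compared with 11.8% of all tested genes in that direction. Of 14 genes induced by IL-4 and STAT6, 12 were tested and 1 was called, the chemokine gene *Ccl22*, with 13.1, 9.06 and 9.72 CPM in sEH-/- and 4.17, 4.70 and 5.55 CPM in wild-type libraries (log2FC 1.15 ± 0.24 SE, adjusted p = 0.034 by edgeR). The median of the 12 was 0.12, and 1 of them had an unadjusted p below 0.05 by edgeR. The genotypes did not overlap in 2 of the 12, 1 higher and 1 lower in sEH-/-, compared with 26.3% of all tested genes. The classical STAT6 targets *Arg1* and *Chil3* had log2FCs of 0.13 (SE 0.12) and 0.089 (SE 0.15), within the replicate error. After duplicate removal these 2 genes carried 0.516 and 0.651 counts per exonic base, more than *Il10ra*, *Ebi3* or *Il4ra*. Whether a ceiling on their counts narrowed these differences was not tested. When sEH-/- replicate 2, or either replicate 2 or 3 of the wild-type cells, was left out, *Dusp1* and *Ccl22* lost their calls, with adjusted p-values by edgeR between 0.061 and 0.17. *Ccl22* lost it without sEH-/- replicate 1 as well (adjusted p = 0.0503).

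Among 29 regulators of transcription and mRNA decay of these cytokines, 1 was called, *Nfkbiz* (2.61% of all tested genes were called), and the median log2FC came to 0.080. At an unadjusted p below 0.05 by edgeR there were 8 of the 29, against 23.4% of all tested genes. In 5 of the 29 the genotypes did not overlap, 4 with sEH-/- higher and 1 lower, compared with 26.3% of all tested genes. *Nfkbiz* encodes IκBζ, a nuclear cofactor of NF-κB required for full induction of *Il6* and *Il12b*. It had 49.2, 48.1 and 30.1 CPM in the sEH-/- and 15.1, 19.1 and 18.2 CPM in the wild-type libraries (log2FC 1.28 ± 0.19 SE, adjusted p = 0.014 by edgeR). All sEH-/- libraries lay above the wild-type range. It lost its call without wild-type replicate 2 (adjusted p = 0.058 by edgeR) or 3 (0.096). *Zc3h12a*, whose product Regnase-1 degrades *Il6* and *Il12b* mRNA, had a log2FC of 0.068 ± 0.087 (SE, 95% interval −0.13 to 0.26), and *Zfp36*, the gene of tristetraprolin, had one of 0.058 (SE 0.071, 95% interval −0.099 to 0.22). Others of the list differed more without a call by edgeR. The log2FC was 0.57 ± 0.18 (SE) for *Zfp36l1* (adjusted p = 0.087 by edgeR and 0.018 by DESeq2). It was 0.37 ± 0.13 (SE) for *Arid5a* and −0.82 ± 0.30 (SE) for *Batf3* (adjusted p = 0.13 and 0.14 by edgeR). Of the 29, 22 log2FCs were above 0 and 7 below.

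The genes whose pattern over the 6 libraries was most like that of the members with the smallest p, *Il10ra* and *Ebi3*, were sought among 10273 other genes that averaged 50 counts or more. Nearest to *Il10ra* were *Slc45a4*, *Rgs16* and *Tank*, with a Pearson r of log2 CPM of 0.997, 0.997 and 0.996. Nearest to *Ebi3* were *Zc3h7b*, *Mocs1* and *Ms4a14*, with 0.998, 0.997 and 0.996. With 6 points that share their libraries and genotypes, and the highest of so many values, these correlations describe likeness only.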

How the data were processed

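RNA-seq counts of 6 libraries, 1 per mouse, were used. The authors deposited raw counts per gene, not normalized. The submitters' processing notes name Trimmomatic, STAR, Picard, featureCounts and the mm10 build; per the methods, duplicate, multi-mapping, ribosomal and mitochondrial reads were removed and exonic reads counted by strand. Kit, RNA input and tool versions differ between labels and methods.

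Counts were tested in R 4.3.3 with edgeR 4.0.16 (TMM, glmQLFit, glmQLFTest, no covariates, mean count above 5), which kept 13785 of 19309 genes; DESeq2 1.42.0 and limma 3.58.1 (voom) were alternatives. Calls required an adjusted p (Benjamini-Hochberg) under 0.05 with a log2FC beyond ±0.585. The SE is the log2FC over the square root of F. Exonic lengths came from GENCODE M21 (GRCm38, the same build). Scripts were tested on simulated data. Members and lists were chosen with earlier results of these data known. Named were every member and its receptor chains, *Ephx2*, called genes of the lists and the genes most like the 2 members with the smallest p; other genes (such as *Il7*, *Lif*, *Osm*, *Socs3* and *Stat3*) were chosen after their values were seen. Library pairs of a genotype differed by more than sampling noise (chi-square per degree of freedom 2.27 to 4.91). The promoter table held 5 of the 10 members. Alternatives covered normalization, filters, thresholds, a replicate block, the library total as a covariate and single libraries left out.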

Additional observations from a re-analysis of the deposited data

How the results depend on the processing

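Of 7 tested members edgeR called 0, and 1 was called with DESeq2 (*Il6*), without a fold change threshold (*Il10ra*) or with the library total as a covariate (*Il6*). Leaving out single libraries gave 0 to 1. *Il6* could not be fitted without sEH-/- replicate 1 or when every library had to hold at least 10 counts. The log2FC of *Il12b* turned negative with limma-voom (−0.012) and ranged from −0.44 (without sEH-/- replicate 1) to 0.32 over single libraries left out, and was −0.19 without wild-type replicate 1. The range was −0.098 to 0.26 for *Il27*, −0.45 to 0.068 for *Il27ra*, −0.094 to 0.51 for *Il12rb2* and −0.011 to 0.095 for *Il13ra1*, which was −0.0070 without sEH-/- replicate 3 and −0.011 with the covariate. Of the receptor chains 1 was called by edgeR, 3 by DESeq2, 0 by limma-voom, 2 without a filter, 0 with at least 10 counts in every library, 0 by a test against 1.5-fold, 0 with the covariate and 0 to 3 over single libraries left out. Related cytokines had 1 call with DESeq2 and 0 to 1 over single libraries left out, and the JAK, STAT and SOCS genes had 0 under all 17 alternatives. The test against 1.5-fold called 0 of the IL-10, of the IL-4 and of the regulator list, and the covariate left 0 of the IL-10 list. Over single libraries left out these lists had 0 to 3, 0 to 1 and 0 to 2 calls. Over all tested genes the 360 calls became 472 with DESeq2, 307 with limma-voom and 553 without the fold threshold. They became 10 by the test against 1.5-fold, 171 with the covariate, and 6 to 625 over single libraries left out. There were 6 without wild-type replicate 3, 25 without wild-type replicate 2 and 96 without sEH-/- replicate 2. Without sEH-/- replicate 3 and wild-type replicate 1 there were 570 and 625, respectively. The count over all genes under these alternatives, the ceiling correction and the *Il6ra* to *Il6st* ratio were chosen after seeing the data. The cause of these changes was not tested.

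Same-numbered libraries did not deviate together (r of −0.082, −0.26 and −0.037 over genes). With only 3 libraries per genotype, each set centred on its own mean, these values cannot show whether the numbers pair the mice. With the replicate number as a block, 0 members, 2 receptor chains, 0 genes of the IL-4 list and 234 of all genes were called, and the log2FC of *Il12b* was −0.014. *Il10* and *Il12a* were under the count minimum, and edgeR without a filter gave adjusted p-values of 0.37 and 0.25.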
